A study of Mus musculus with 12 samples.

Results

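The Skint genes form a family of membrane proteins related to the butyrophilins, and all 11 numbered Skint genes (Skint1 to Skint11) of the deposited count table are described here. They are the 11 of 55315 genes whose symbol is Skint followed by a number, a rule that uses no measured value. The family itself was chosen with earlier results of these data known. Keratinocytes had been sorted from mouse skin wounds on day 3 after injury, out of a narrow ring at the wound edge. Epcam and integrin alpha6 marked the epithelium, cells with CD45, CD31 or CD117 were discarded, and integrin alpha5 (A5) divided the rest into A5-positive cells, assigned by the study to the migrating tongue, and A5-negative cells of the wound edge behind it. The 4 groups, with 3 libraries each, were A5-positive cells of RORgt deficient mice, A5-negative cells of RORgt deficient mice, A5-positive cells of wild-type mice and A5-negative cells of wild-type mice. The RORgt deficient libraries are titled GFP-KI, RORγt being the transcription factor of lymphocytes that make IL-17. All 4 groups came from wounded skin, each library pooled 2 or 3 mice, and the labels give no age or strain.

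Skint proteins carry immunoglobulin-like domains and several membrane-spanning segments, and are made mainly by thymic epithelium and skin keratinocytes. Skint1, the founding member, is known in mice for the selection of dendritic epidermal T cells, the γδ T cells with a Vγ5Vδ1 receptor that live between keratinocytes. Skint3 and Skint9 have been linked in mice to signalling from keratinocytes at a wound edge to these T cells. The functions of most other members are less well known.

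The family lies in a single cluster on chromosome 4 of GRCm38, from 111919392 to 114245028, a span of 2.33 Mb with 0 other protein-coding genes inside. Along the chromosome the order is Skint8, Skint7, Skint1, Skint4, Skint3, Skint9, Skint2, Skint10, Skint6, Skint5 and Skint11. The annotation places 7 members on the plus strand and 4 (Skint9, Skint10, Skint6 and Skint5) on the minus strand. Gene length is uneven, since Skint6 spans 482.4 kb and Skint5 spans 521.6 kb, whereas Skint7 spans 15.3 kb.

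Promoter windows of 300 bases (250 before to 50 after the annotated start, RefSeq, GRCm38.p6) matched all 11 members. The Skint2 window (chr4:112613490-112613789, plus strand) lies inside the gene as placed by GENCODE M21, which starts at 112557194. Windows are shown because the members moved together between the sorted fractions and because several windows are alike. Skint6 and Skint5, neighbours on the minus strand, have the most similar pair of windows, with 269 identical bases in an alignment of 300 (89.7%). The windows below are written 5′ to 3′ on the gene's own strand, and the capitals mark a run of 14 bases found in 4 of the 11 windows nearest the annotated starts (Skint1, Skint3, Skint5 and Skint6) and in the window of the other RefSeq start of Skint4. They are the whole windows of Skint6 (chr4:113286924-113287223, minus strand) and Skint5 (chr4:113999454-113999753, minus strand), and the stretch around the run in Skint3 (chr4:112232117-112232180, plus strand), Skint4 (chr4:112081398-112081461, plus strand) and Skint1 (chr4:112006019-112006076, plus strand).
Skint6: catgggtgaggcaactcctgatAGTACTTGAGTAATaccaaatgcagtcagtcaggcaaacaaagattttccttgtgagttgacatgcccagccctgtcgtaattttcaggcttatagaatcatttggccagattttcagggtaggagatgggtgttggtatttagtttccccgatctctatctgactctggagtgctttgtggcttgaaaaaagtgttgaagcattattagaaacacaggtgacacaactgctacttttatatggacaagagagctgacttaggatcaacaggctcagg
Skint5: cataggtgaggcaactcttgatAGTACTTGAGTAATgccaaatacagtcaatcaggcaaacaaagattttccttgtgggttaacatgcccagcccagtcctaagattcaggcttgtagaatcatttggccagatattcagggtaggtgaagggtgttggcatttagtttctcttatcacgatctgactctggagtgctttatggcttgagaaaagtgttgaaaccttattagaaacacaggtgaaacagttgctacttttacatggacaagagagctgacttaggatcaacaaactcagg
Skint3: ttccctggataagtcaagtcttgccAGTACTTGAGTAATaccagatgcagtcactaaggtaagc
Skint4: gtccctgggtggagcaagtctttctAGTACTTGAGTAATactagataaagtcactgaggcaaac
Skint1: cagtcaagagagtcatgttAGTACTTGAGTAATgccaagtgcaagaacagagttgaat
The run was chosen from the member windows, as the longest held by 4 members. These 5 windows were all that held the run, on either strand, among 32851 mouse promoter windows of this length. That count is not independent of the choice. The run began 228 bases before the start in Skint6 and in Skint5, 103 before it in Skint3, 47 before it in Skint4 and 231 before it in Skint1. A match of letters is a description of the sequence and not of a site in use.

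Other pairs of windows were alike over part of their length. The best local alignment of Skint10 with Skint11 held 210 identical bases (82.0% of its columns), that of Skint3 with the other Skint4 start 194 (78.5%), and that of Skint2 with Skint6 190 (68.3%). Skint9 and Skint10 shared 138 identical bases and Skint8 and Skint7 shared 112. Of 66 pairs, 15 had 50 or more identical bases, and the median was 15.0. The letters TATAAA, searched on both strands, occurred in 7 of the 11 members (63.6%) and in 13.6% of all windows. On the gene's own strand they occurred only in Skint1, at -40 from the start. The share of all windows with them on the own strand was not computed. Skint8 and Skint7 hold them in a stretch that both windows share, so the members are not independent. CCAAT occurred in 4 members (36.4%, against 37.4% of all windows), the AP-1 letters TGANTCA in 1 (9.09%, against 7.81%) and the E-box letters CANNTG in 7 (63.6%, against 72.3%).

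**Figure D1:**
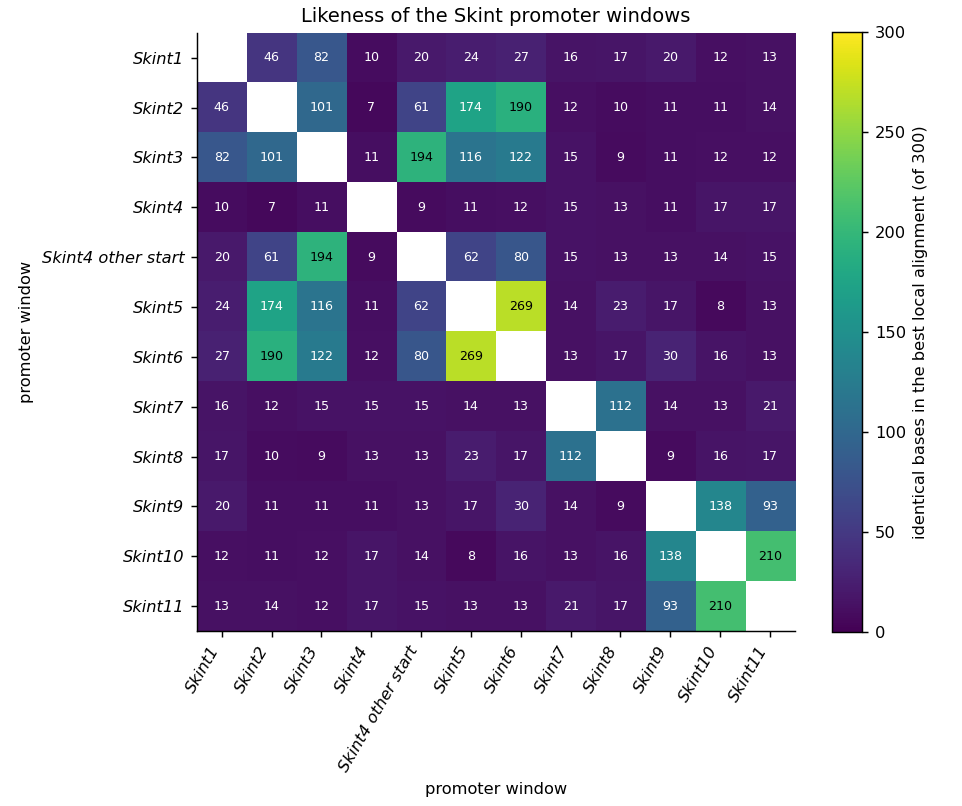
Identical bases in the best local alignment of each pair of promoter windows, for the 11 members and the other RefSeq start of Skint4 (rows and columns, colour from 0 to 300 bases). Skint5 with Skint6 stands highest at 269, followed by Skint10 with Skint11 at 210, and most pairs lie near the median of 15.0.

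The libraries held 29293687 to 74563616 counts, and 14946 to 17538 genes had at least 10 counts. Itga5, the gene of the sort marker, was higher in A5-positive cells over both genotypes (log2 fold change 1.09 ± 0.10 SE, edgeR adjusted p = 2.9e-05). Fibroblast markers went with the sort: the summed level of 13 genes was 9740 to 16500 CPM in RORgt deficient and 3840 to 8380 CPM in wild-type A5-positive cells, against 54.7 to 514 and 84.6 to 231 CPM in the A5-negative cells. CPM are reads per 1e6 counts, over all counts of a library for such list sums and scaled by TMM factors for other levels.

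All 11 members reached 1 CPM in all 12 libraries, and all 11 passed the filter on low counts. A single library held between 62 and 10815 reads of a member. Summed over the family, the level was 278, 312 and 411 CPM in A5-positive cells of RORgt deficient mice (334 ± 69.2 CPM, SD, n = 3) against 506, 494 and 640 CPM in their A5-negative cells (546 ± 81.3 CPM). In wild-type mice it was 184, 285 and 434 CPM in A5-positive cells (301 ± 126 CPM) and 453, 481 and 633 CPM in A5-negative cells (522 ± 96.8 CPM). Within each genotype every A5-positive library was below every A5-negative library, while the genotypes overlapped in both fractions.

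Per kilobase of exon, Skint9 stood first with a mean of 45.4 CPM per kb over the 12 libraries, followed by Skint3 with 36.0 and Skint1 with 18.3 CPM per kb. Next came Skint4 with 15.6, Skint11 with 13.0, Skint6 with 6.80, Skint2 with 6.73, Skint10 with 4.11, Skint5 with 2.85, Skint7 with 2.36 and Skint8 with 0.862 CPM per kb. Each of Skint3, Skint11, Skint2 and Skint7 was above the next gene in that order in 12 of 12 libraries. The order of other neighbours was less even: Skint9 was above Skint3 in 8 libraries, Skint4 above Skint11 in 9 and Skint6 above Skint2 in 5. Skint9 also had the widest range, from 12.7 to 93.3 CPM per kb. In A5-negative cells it averaged 59.0 ± 22.3 CPM per kb in RORgt deficient and 63.4 ± 26.9 in wild-type mice, against 42.0 ± 7.56 and 41.2 ± 7.15 for Skint3. In A5-positive cells Skint9 averaged 30.3 ± 14.0 CPM per kb in RORgt deficient and 28.9 ± 23.0 in wild-type mice, and Skint3 32.0 ± 9.95 and 28.7 ± 10.4. Skint6 was likewise below Skint2 in A5-positive cells, with 4.63 ± 1.56 against 5.34 ± 2.80 CPM per kb in RORgt deficient and 2.81 ± 1.32 against 4.32 ± 3.00 in wild-type mice. Each of these differences was smaller than the larger SD of the pair. The order per kilobase depends on the annotated exon length, which is 1372 bases for Skint9 and 1393 for Skint11, against 3843 for Skint3. Without division by length, group means ran from 39.7 to 86.9 CPM for Skint9 and from 110 to 162 CPM for Skint3.

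**Figure D2:**
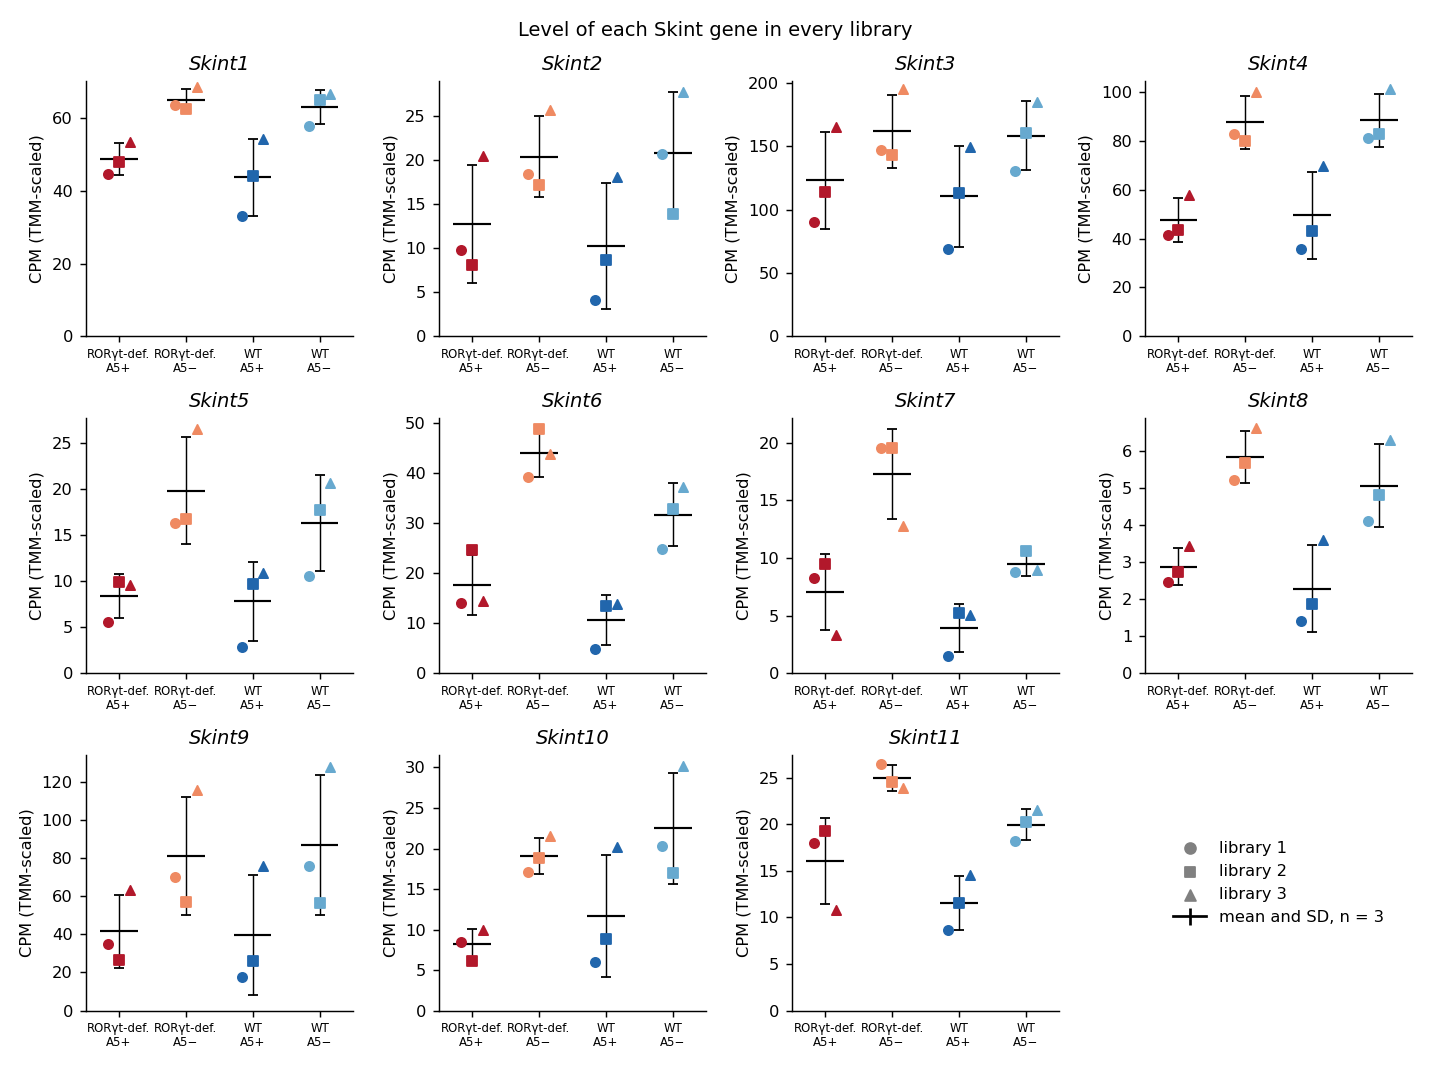
Level of each Skint gene (CPM, TMM-scaled, linear axis from 0) in every library, with the groups from left to right RORγt-deficient A5-positive, RORγt-deficient A5-negative, wild-type A5-positive and wild-type A5-negative. Symbols give the library number and the black bars the mean and SD of 3 libraries. In every panel the mean of A5-positive cells lies below that of A5-negative cells of the same genotype.

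A5-positive cells were set against A5-negative cells to compare migrating with nonmigrating epithelium. Averaged over both genotypes, 8 of the 11 Skint genes fell in A5-positive cells (edgeR quasi-likelihood test, adjusted p below 0.05 over 16677 genes), and 0 rose. Of all genes tested, 6.35% fell in this comparison. The median log2 fold change of the members was -1.05, against 0.01 for all genes, and all 11 members were below 0, as were 49.4% of all genes. In bulk RNA, fewer cells of a type and less RNA per cell cannot be told apart.

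The library numbers were taken to pair the samples, as given under the processing. With the number as a block all 11 members fell, against 15.5% of all genes. Skint3 (adjusted p = 0.123), Skint9 (adjusted p = 0.0669) and Skint2 (adjusted p = 0.1) were the members that did not pass without the block. With it their adjusted p were 0.00335, 0.000497 and 0.00503. The count without the block was 5 when wild-type A5-negative library 3 was left out, and 7 to 10 without any other library.

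Skint6 changed most. It had 14.0, 24.6 and 14.5 CPM in A5-positive cells of RORgt deficient mice, against 39.1, 48.7 and 43.8 CPM in their A5-negative cells. In wild-type mice it had 4.92, 13.4 and 13.8 CPM in A5-positive cells, against 24.9, 32.8 and 37.2 CPM in A5-negative cells. All 6 A5-positive libraries were below all 6 A5-negative libraries, with a narrow gap between 24.6 and 24.9 CPM. The log2 fold change over both genotypes was -1.44 ± 0.24 (adjusted p = 0.0024), a level 2.71-fold lower in A5-positive cells.

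Skint4 followed the same order. Its levels were 41.5, 43.5 and 57.7 CPM in A5-positive and 82.6, 79.9 and 100 CPM in A5-negative cells of RORgt deficient mice. Wild-type mice had 35.8, 43.3 and 69.6 CPM in A5-positive and 81.3, 82.7 and 101 CPM in A5-negative cells. The A5-positive and A5-negative libraries did not overlap, and the log2 fold change over both genotypes was -0.86 ± 0.16 (adjusted p = 0.00429).

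Skint1, the gene of dendritic epidermal T cell selection, fell less. It had 44.8, 48.0 and 53.4 CPM in A5-positive and 63.8, 62.6 and 68.5 CPM in A5-negative cells of RORgt deficient mice. In wild-type mice the values were 33.0, 44.0 and 54.2 CPM in A5-positive and 57.9, 65.0 and 66.6 CPM in A5-negative cells. Here too the fractions did not overlap, and the log2 fold change was -0.47 ± 0.11 (adjusted p = 0.0163), or 1.39-fold lower. Without wild-type A5-negative library 3 the adjusted p was 0.052.

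Skint8, the member with the lowest level, had 2.47, 2.74 and 3.42 CPM in A5-positive and 5.21, 5.67 and 6.6 CPM in A5-negative cells of RORgt deficient mice. Wild-type mice had 1.40, 1.86 and 3.60 CPM in A5-positive and 4.10, 4.80 and 6.28 CPM in A5-negative cells. Its log2 fold change was -1.09 ± 0.23 (adjusted p = 0.00943). Skint6, Skint4, Skint1 and Skint8 were the 4 members whose fractions did not overlap over all 12 libraries. Of all genes, 1.34% were lower in this way.

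Skint7, which lies next to Skint8, had a log2 fold change of -1.29 ± 0.31 (adjusted p = 0.0168). Its A5-positive level in RORgt deficient mice, at most 9.50 CPM, reached into the range of wild-type A5-negative cells, at least 8.80 CPM. The remaining members that passed were Skint5 (-1.16 ± 0.31, adjusted p = 0.0249), Skint10 (-1.09 ± 0.27, adjusted p = 0.0181) and Skint11 (-0.72 ± 0.16, adjusted p = 0.0115). Skint5, whose promoter window is close to that of Skint6, had group means of 8.39 ± 2.40 and 19.8 ± 5.75 CPM in A5-positive and A5-negative cells of RORgt deficient mice. In wild-type mice its means were 7.82 ± 4.32 and 16.3 ± 5.22 CPM. Without the block, Skint5 did not pass when any of 4 libraries was left out, and Skint10 when wild-type A5-negative library 3 was.

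Skint9 and Skint3, both linked to wound-edge signalling, had the highest levels per kilobase. Skint9 had 34.9, 26.7 and 63.2 CPM in A5-positive and 70.2, 57.1 and 116 CPM in A5-negative cells of RORgt deficient mice. In wild-type mice it had 17.4, 25.9 and 75.7 CPM in A5-positive and 76.1, 56.7 and 128 CPM in A5-negative cells. Library 3 was the highest of its group each time, so the fractions overlapped, while within a number the A5-positive library was always lower. The log2 fold change was -1.05 ± 0.37 without the block and -1.14 ± 0.16 with it.

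Skint3 had 90.3, 114 and 165 CPM in A5-positive and 147, 143 and 195 CPM in A5-negative cells of RORgt deficient mice. Wild-type mice had 68.8, 113 and 149 CPM in A5-positive and 130, 160 and 185 CPM in A5-negative cells. Its log2 fold change of -0.46 ± 0.20 was the smallest of the family, close to the -0.47 ± 0.11 of Skint1. With the block it was -0.50 ± 0.10, and that of Skint1 was -0.49 ± 0.08. Skint2 had means of 12.7 ± 6.67 and 20.4 ± 4.58 CPM in A5-positive and A5-negative cells of RORgt deficient mice, and of 10.3 ± 7.15 and 20.8 ± 6.90 CPM in wild-type mice.

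The A5-positive and the A5-negative library of the same genotype and number were taken as a pair. All 66 ratios of A5-positive over A5-negative level, 11 members in 6 pairs, were below 0 on the log2 scale. They are not 66 separate observations, since they come from 6 pairs and members correlated at a median r of 0.874. The share of all genes below 0 in all 6 pairs was not computed. Skint6 ranged from -2.34 to -0.99 over the pairs and Skint1 from -0.81 to -0.30. In all 6 pairs the ratio of Skint6 was lower than that of Skint1 and lower than that of Skint3. The same held in all 6 pairs for Skint4, Skint5, Skint7, Skint8, Skint9 and Skint10. Skint1 and Skint3 had the smallest changes in these same ratios, with medians of -0.44 and -0.42. Lower ratios of other members therefore largely follow from that choice of references, and no test was made. Wild-type pair 1 had the lowest median over the members, -1.77, and wild-type pair 3 the highest, -0.61. The 3 pairs of RORgt deficient mice had medians of -1.0, -0.99 and -0.95.

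Shares of the summed family level were compared between fractions for Skint3, with the smallest change without the block, and Skint6, with the largest. Because they were chosen by that change, the direction of their shares follows from the choice. Skint3 took 36.3% ± 3.84 of the summed family level in A5-positive cells of RORgt deficient mice against 29.5% ± 0.858 in their A5-negative cells, and 37.0% ± 2.67 against 30.4% ± 2.49 in wild-type mice. Skint6 took 5.48% ± 2.21 against 8.15% ± 1.56 in RORgt deficient mice and 3.52% ± 1.07 against 6.07% ± 0.679 in wild-type mice. In RORgt deficient mice the Skint6 shares overlapped, with 3.52% to 7.87% in A5-positive and 6.84% to 9.87% in A5-negative cells. The Skint4 share in wild-type mice was 16.9% ± 2.24 in A5-positive and 17.0% ± 1.03 in A5-negative cells. These shares are given as a description, with no test.

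**Figure D3:**
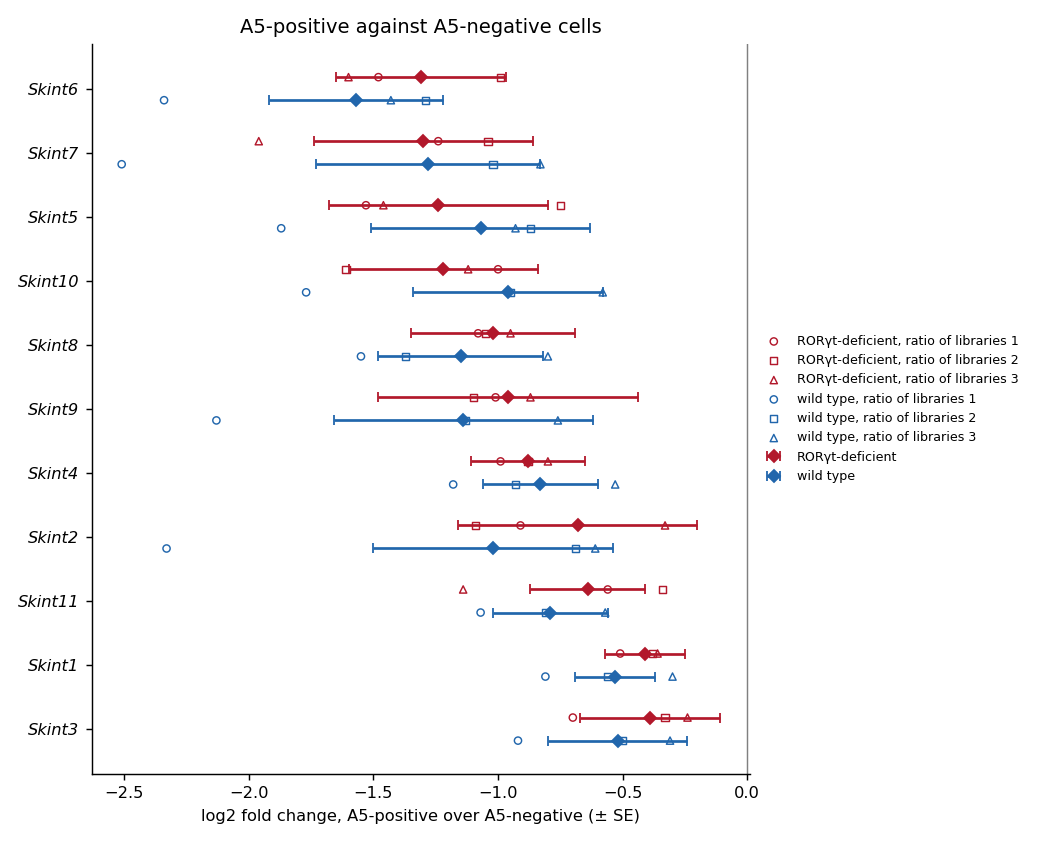
Log2 fold change of A5-positive over A5-negative cells for each Skint gene, in RORγt-deficient mice (red, upper row of a gene) and wild-type mice (blue, lower row). Diamonds with bars are the fitted change ± SE, open symbols the ratios of libraries with the same number, and every symbol lies below 0. Skint6 and Skint7 are at the top with the largest changes and Skint1 and Skint3 at the bottom.

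Taken within each genotype, with 3 libraries against 3, fewer members passed. In RORgt deficient mice Skint4 (-0.88 ± 0.23, adjusted p = 0.0422) and Skint6 (-1.31 ± 0.34, adjusted p = 0.0463) fell, 2 of 11 members, against 0.965% of all genes. In wild-type mice Skint6 fell (-1.57 ± 0.35, adjusted p = 0.0302), 1 of 11 members, against 0.33% of all genes. With the block the counts were 8 of 11 in RORgt deficient mice (all except Skint3, Skint2 and Skint11; 7.54% of all genes) and 10 of 11 in wild-type mice (all except Skint7; 5.59% of all genes). Without the block, leaving out any RORgt deficient library left 0 or 1 member called in these mice, and in wild-type mice leaving out a library left 0 to 6. With the block, Skint4 and Skint6 passed in both genotypes without any of the compared libraries.

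All 11 members were below 0 in RORgt deficient mice, with a median log2 fold change of -0.96, where 50% of all genes were below 0. In wild-type mice all 11 were below 0 too, with a median of -1.02, where 47.9% of all genes were. Levels did not overlap for 8 members in RORgt deficient mice (11.3% of all genes were lower without overlap) and for 6 in wild-type mice (9.12% of all genes). The difference between the genotypes in the A5 effect was tested as an interaction. It ranged from -0.26 ± 0.53 for Skint10 to 0.34 ± 0.68 for Skint2. For Skint6 it was 0.26 ± 0.48, with a sign that turned when RORgt deficient A5-positive library 2 or wild-type A5-positive library 1 was left out. With edgeR 0 of 11 members and 0 of 16677 genes passed, 458 genes having an unadjusted p below 0.05, and with the block or with DESeq2 0 members passed. The SEs of the 11 interactions ran from 0.23 to 0.73.

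RORgt deficient mice were compared with wild-type mice in each sorted fraction. No Skint gene passed in A5-positive or in A5-negative cells, by edgeR with or without the block or by DESeq2. edgeR called 1 of 16677 genes (0.006%) in each fraction without the block and 4.02% of genes in A5-positive cells with it. The members' median log2 fold change was 0.16 in A5-positive and 0.04 in A5-negative cells, and that of all genes was 0 in both. No member had an unadjusted p below 0.05 in either fraction.

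Skint6 was the only member whose genotypes did not overlap in either fraction, though its changes were smaller than those of Skint7. In A5-positive cells its 14.0, 24.6 and 14.5 CPM in RORgt deficient mice all lay above the 4.92, 13.4 and 13.8 CPM of wild-type mice. The gap there was narrow, between 13.8 and 14.0 CPM. In A5-negative cells 39.1, 48.7 and 43.8 CPM lay above 24.9, 32.8 and 37.2 CPM. The log2 fold change was 0.73 ± 0.34 in A5-positive (adjusted p = 0.344, and 0.0883 with the block) and 0.47 ± 0.34 in A5-negative cells (adjusted p = 0.779, and 0.363 with the block). All 6 ratios between libraries with the same number were above 0, from 0.07 to 1.51.

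Skint7 had 8.27, 9.50 and 3.29 CPM in A5-positive cells of RORgt deficient mice, against 1.54, 5.22 and 5.05 CPM in wild-type mice. In A5-negative cells it had 19.5, 19.5 and 12.8 CPM in RORgt deficient mice, against 8.80, 10.6 and 8.99 CPM in wild-type mice. Only the A5-negative groups did not overlap. The log2 fold changes of 0.85 ± 0.44 and 0.87 ± 0.44 did not pass (adjusted p = 0.386 and 0.779). Skint11 was separated in the same way, with 23.9 to 26.5 CPM in RORgt deficient and 18.2 to 21.5 CPM in wild-type A5-negative cells, and overlapped in A5-positive cells.

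Groups did not overlap, with RORgt deficient mice higher, for 1 member in A5-positive cells (9.04% of all genes) and for 3 members in A5-negative cells (7.33% of all genes). For 0 members was every RORgt deficient library below every wild-type library, which held for 9.01% of all genes in A5-positive and 8.26% in A5-negative cells. Skint10 had a negative change in both fractions, -0.50 ± 0.38 in A5-positive and -0.24 ± 0.37 in A5-negative cells. The sign in A5-positive cells turned, to 0.18, without wild-type A5-positive library 3.

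The mean of the genotype effects in both fractions was added after the data were seen. Without the block 0 of 11 members passed, with Skint7 at 0.86 ± 0.31 (adjusted p = 0.18), Skint6 at 0.60 ± 0.24 (adjusted p = 0.207) and Skint11 at 0.40 ± 0.16 (adjusted p = 0.206), and 0.036% of all genes rose. With the block Skint6 rose (0.64 ± 0.17, adjusted p = 0.038), 1 member where 6.97% of all genes rose. That call ended without any of 10 of the 12 libraries. Without RORgt deficient or wild-type A5-positive library 3, it was joined by Skint7 and Skint11.

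**Figure D4:**
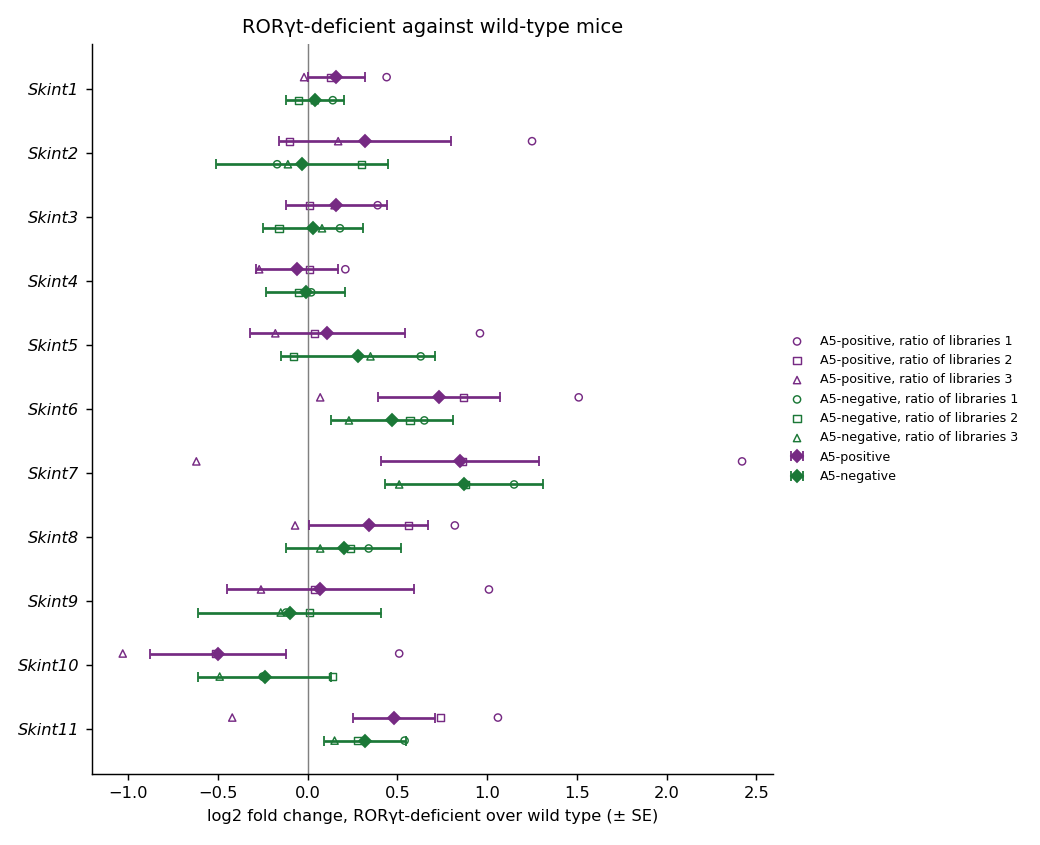
Log2 fold change of RORγt-deficient over wild-type mice for each Skint gene in A5-positive cells (purple, upper row of a gene) and A5-negative cells (green, lower row). Diamonds with bars are the fitted change ± SE and open symbols the ratios of libraries with the same number. The bars of most genes cross or approach 0, and the ratios of Skint6 are all above 0.

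The genotype ratios of A5-positive cells differed between library numbers. In A5-positive cells all 11 members were higher in RORgt deficient library 1 than in wild-type library 1, with a median of 0.96, whereas 8 of 11 were lower in pair 3. In A5-negative cells the medians of pairs 1 to 3 were 0.18, 0.14 and 0.07, with 3, 4 and 4 members below 0. Wild-type A5-positive library 1 had the lowest family sum of the 12, 184 CPM. For 7 of the 11 members library 3 was the highest in all 4 groups, and the exceptions were Skint7, Skint6, Skint5 and Skint11. The shares of all genes with library 3 highest, or with such signs in these pairs, were not computed. These counts are therefore not shown to be particular to the family. Summed sebocyte markers were also highest in library 3 of each group, with 1450, 1810, 2050 and 2440 CPM in RORgt deficient A5-positive, RORgt deficient A5-negative, wild-type A5-positive and wild-type A5-negative cells. Summed hair follicle genes were likewise highest in library 3 of each group, with 14600, 16600, 15800 and 19200 CPM in the same order of groups. Summed basal keratinocyte genes were lowest in library 3 of each group, with 40000, 29500, 46700 and 30400 CPM. Summed genes of differentiating keratinocytes were highest in library 3 except in RORgt deficient A5-positive cells, with 9150 CPM in library 2 and 8880 CPM in library 3. The part of these cell states in the levels of the family was not tested.

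Over the 12 libraries, log2 levels of members correlated with each other at a Pearson r of 0.513 to 0.978 (55 pairs, median 0.874). After group means were removed the range was -0.000852 to 0.968 (median 0.752). After group means, the r of Skint7 was -0.000852 with Skint9, 0.0769 with Skint2 and 0.229 with its neighbour Skint8. With Skint11, at the far end of the cluster, it was 0.891. Skint6 and Skint5 had an r of 0.871 and Skint9 and Skint2 of 0.964. The libraries share their depth and scaling, so these values describe the libraries.

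Of 9062 genes with at least 3 as mean log2 CPM, Krt80, which encodes an epithelial keratin, and Me1, the cytosolic malic enzyme, were most like the mean profile of the family (r of 0.975 each over 12 libraries). Susd2 (0.971), Tmem184a (0.97), Bbox1, the last enzyme of carnitine synthesis (0.968), Mcur1 (0.966), the kinase gene Pak3 (0.965) and Baiap2, an adaptor of the actin cytoskeleton (0.959), followed. Krt80 had 388, 537 and 442 CPM in A5-positive and 792, 901 and 857 CPM in A5-negative cells of RORgt deficient mice. In wild-type mice it had 209, 406 and 528 CPM in A5-positive and 598, 728 and 825 CPM in A5-negative cells. After group means were removed, the most similar were Ptpra (0.983), Susd2 (0.976), Gsn, the actin-severing gelsolin (0.974), Vsig10l (0.961) and Cish, a suppressor of cytokine signalling (0.957).

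The protein-coding genes beside the cluster were compared over both genotypes as well. Slc5a9, a sugar transporter gene 16.5 kb before Skint8, had a log2 fold change of -0.46 ± 0.26 (adjusted p = 0.226, and 0.0389 with the block). Spata6, further out on that side, had 0.26 ± 0.16 (adjusted p = 0.254). Trabd2b, 161.7 kb beyond Skint11, rose in A5-positive cells by 0.65 ± 0.20 (adjusted p = 0.0414).

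Other butyrophilin-family genes were close to absent. The summed level of 10 such genes was 0.36 to 0.861 CPM in RORgt deficient A5-positive, 0.447 to 0.644 in RORgt deficient A5-negative, 0.0602 to 0.47 in wild-type A5-positive and 0.287 to 1.92 CPM in wild-type A5-negative cells. Btnl4, Btnl10 and Mog were at 0 in all 12 libraries. Ermap was the 1 gene of this list with enough counts to be tested, at -0.30 ± 0.62 (adjusted p = 0.76).

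Of 11 tested genes for other epidermal ligands and factors of dendritic epidermal T cells, 2 fell and 0 rose in A5-positive cells over both genotypes, with a median of -0.13. They were Ahr, the aryl hydrocarbon receptor (-0.58 ± 0.13, adjusted p = 0.0131), and Il15, a growth factor of these T cells (-0.77 ± 0.23, adjusted p = 0.0392). With the block Cdh1, the E-cadherin gene, also fell (adjusted p = 0.00206) and Cd1d1, an antigen-presenting molecule, rose (adjusted p = 0.0112). H60c, the skin ligand of the NKG2D receptor, had 28.1 ± 4.55 and 32.3 ± 3.24 CPM in A5-positive and A5-negative cells of RORgt deficient mice and 37.9 ± 3.97 and 36.5 ± 5.27 CPM in wild-type mice, a change of -0.07 ± 0.11 (adjusted p = 0.673). By genotype, 0 of the 11 passed in either fraction. With the block, Ccl27a, a skin chemokine (0.68 ± 0.20, adjusted p = 0.0404), and Ahr (0.63 ± 0.19, adjusted p = 0.0447) rose in RORgt deficient A5-positive cells.

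The T cells themselves had been sorted out with CD45. Of 19 listed marker genes of dendritic epidermal T cells in the table, 8 had enough counts to be tested, and the summed level was 13.5 to 19.2 CPM in RORgt deficient A5-positive, 9.30 to 29.5 in RORgt deficient A5-negative, 13.7 to 14.7 in wild-type A5-positive and 11.7 to 66.7 CPM in wild-type A5-negative cells. The receptor genes Trdc, Trdv4, Tcrg-C1, Cd3d, Cd3e and Cd3g were below the testing minimum, with a highest value of 1.22 CPM, for Cd3e in wild-type A5-negative library 1. Over both genotypes 4 markers fell in A5-positive cells and 1 rose. Klrk1, which encodes NKG2D, fell most (-3.14 ± 0.68, adjusted p = 0.00985), and Cd244a, Fcer1g and Jaml fell with it, while Thy1 rose (0.99 ± 0.30, adjusted p = 0.0414). Thy1 is also on the list of fibroblast markers, so it is no marker of these T cells alone. It held a large part of the sums in A5-positive cells, with 9.43 ± 3.20 CPM in RORgt deficient and 7.70 ± 1.15 CPM in wild-type mice. The part of these cells in the levels of the family was not tested.

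Keratinocyte state differed between the fractions as well. Of all 16677 genes, 11.9% rose and 6.35% fell in this comparison, and 18.5% rose and 15.5% fell with the block. Of 21 tested genes of differentiating keratinocytes, 5 fell (11 with the block) and 0 rose in A5-positive cells over both genotypes, with a median of -0.48 and 13 of 21 below 0. Calm5, a calmodulin-like gene of differentiating epidermis (-0.83 ± 0.13, adjusted p = 0.00171), Notch3, a receptor (-0.71 ± 0.14, adjusted p = 0.00593), Dsg1a, a desmosomal cadherin (-0.87 ± 0.21, adjusted p = 0.0146), and the transcription factor gene Ovol1 (-0.90 ± 0.22, adjusted p = 0.0158) had the lowest p. Genes at or above 0 included Tgm3, a transglutaminase (0.59 ± 0.31, adjusted p = 0.203), and Lgals7, a galectin of stratified epithelia (0.26 ± 0.24, adjusted p = 0.467), chosen after their values were seen. Of 12 basal keratinocyte genes 2 rose, Krt14 (0.69 ± 0.17, adjusted p = 0.0203) and Lama3 (0.62 ± 0.16, adjusted p = 0.0233), and 0 fell (6 rose and 1 fell with the block). Of 15 wound-front genes 8 rose and 1 fell, with Krt6a, a keratin of wounded epidermis, at 1.77 ± 0.22 (adjusted p = 0.000305). Of 16 hair follicle genes 2 fell and 3 rose (4 and 4 with the block), and of 11 sebocyte genes 0 passed, with 10 below 0 (4 fell with the block). The part of these states in the change of the Skint genes was not tested.

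Among markers of other cells, 12 of 13 fibroblast genes rose in A5-positive cells over both genotypes (13 with the block). Of 14 macrophage and monocyte genes 6 fell (11 with the block), and of 10 Langerhans and dendritic cell genes 1 fell (2 with the block). Of melanocyte genes 0 of 4 tested passed, and of endothelial genes 1 of 7 rose. Macrophage sums were highest, at 1600 CPM, in wild-type A5-negative library 1. Epcam, the epithelial sort marker, had a change of -0.35 ± 0.17 (adjusted p = 0.167, and 0.0165 with the block). The part of the fibroblast and macrophage markers in the family's change was not tested.

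Reads can be hard to assign where members share sequence. Runs of 50 bases shared with another Skint gene made up 6.83% of the annotated transcript sequence of Skint7 and 5.81% of that of Skint8, which share theirs with each other. For Skint6 and Skint5, which share theirs with each other, they made up 4.64% and 3.97%. The share was 0.819% in Skint2, 0.495% in Skint3 and 0 in the other members. Counting any other annotated gene, it was 4.51% in Skint11, all shared with the pseudogene Gm12813, 7.77% in Skint8, 7.53% in Skint7, 2.11% in Skint2 and 0.185% in Skint4. Values of Skint11, of Skint2, of Skint7 with Skint8, and of Skint6 with Skint5, are uncertain to the extent that reads of these stretches could have been split or dropped. Skint6 also overlaps an antisense gene, Gm12823, by 63 exon bases, and the strand setting of the counting is not given in the sources used here.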

How the data were processed

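The authors deposited whole-number read counts for each gene symbol, with no normalization. Reads were handled with STAR, featureCounts, Trimmomatic 0.36 and bcl2fastq on mm10 (GRCm38), per the submitters' processing notes. Per the labels' protocols, libraries were made with SMART-Seq v4 and ThruPLEX. Not given in the sources used here are the annotation release, the strand setting and the treatment of multi-mapping reads. Of 55341 rows, 26 whose symbols had become dates (0.11% to 0.128% of a library's counts) were left out.

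Counts were fitted with edgeR 4.0.16 (R 4.3.3): TMM factors (0.919 to 1.08), filterByExpr by group, 1 model of the 4 groups over 12 libraries, quasi-likelihood F tests, and Benjamini-Hochberg adjustment over 16677 genes in each of 7 comparisons (threshold 0.05). The SE is the log2 fold change divided by the root of F. Likeness used log2 CPM with a prior count of 2. Promoter windows were aligned locally (Biopython 1.88), and positions come from GENCODE M21.

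Libraries 1 to 3 of a group are numbered as in the labels. Residuals from group means over 7424 genes correlated above 0.1 in all 18 same-number pairs (0.167 to 0.756, median 0.514). The 36 other pairs had a median of -0.27 and a highest value of 0.347. That value joined RORgt deficient A5-positive library 1 with A5-negative library 3. It was above the 0.184 of RORgt deficient A5-positive library 1 with its same-number A5-negative library. Residuals of a group cancel out, so high values in some pairs lower those in others. The numbers were taken to pair the libraries on this ground. The block was the number alone, shared by both genotypes. Values with the number as a block stand beside results whose call they change. Libraries of a group differed beyond counting error. Without the block, the p-values reflect how far libraries of a group, each a pool of mice, differ. Libraries taken as a pair then count as separate. With the block, the p-values reflect the spread left after the number is fitted.

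All members are named. The other genes named are the 8 and 5 most like the family, the cluster's neighbours, and list members with the lowest p. Markers of the sort are added. The members and lists were chosen with earlier results of these data known. Alternatives were DESeq2 1.42.0, RLE size factors, CPM of at least 5 in 3 libraries, no filter, the block, and leaving out each library. The level of the gene targeted in the deficient mice is not reported here.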

Additional observations from a re-analysis of the deposited data

How the results depend on the processing

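All 11 members stayed below 0 in the A5 comparisons under every alternative run. The count of members that fell over both genotypes was 8 and stayed within 1.5 times of it, up to 11 with the replicate block, except without wild-type A5-negative library 3; leaving out libraries gave 5 to 10 (11 with the block each time). The A5 count in RORgt deficient mice, 2, was 1 with RLE size factors, 6 with DESeq2, 5 with no filter and 8 with the replicate block; leaving out libraries gave 0 to 1, or 2 to 8 with the block. The A5 count in wild-type mice, 1, was 6 with DESeq2, 3 with no filter, 2 with CPM of at least 5 in 3 libraries and 10 with the replicate block; leaving out libraries gave 0 to 6, or 4 to 11 with the block. The cause of these moves was not tested. The genotype counts in each fraction and the interaction count were 0 under every alternative. The added mean genotype effect gave 0, 1 with the replicate block, and 0 to 3 with the block and a library left out. Signs turned only when a library was left out: the genotype effect of Skint10 in A5-positive cells ran from -0.83 to 0.18 (-0.72 to 0.02 with the block), and the interaction of Skint6 from -0.06 to 0.54. Single-gene values under alternatives were computed for all members in the A5 comparisons, and in the other comparisons for Skint6, Skint7, Skint10 and Skint11 (interaction: Skint6). Each member had at least 62 reads in every library. Intervals of reads without molecular identifiers would cover counting error only.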
